A study of Mus musculus with 58 samples.

Results

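Mouse small-intestinal organoids were driven out of the stem cell state by blocking Wnt and Notch signalling together with either the EGF receptor or Mek, and single cells from them were profiled by CEL-seq, a method that counts the 3' ends of transcripts. The wells described here are those low in transcripts of the granins Chga and Chgb and of Tph1. Granins are secretory granule proteins of hormone cells, and Tph1 is the enzyme that starts serotonin synthesis. The 6 libraries held 576 wells, of which 251 had at least 1500 transcripts. Of these, 151 had under 5 Tph1 transcripts and under 0.3% Chga plus Chgb, and these 151 granin-low wells are the members. The other 100 wells reached the granin limit, 28 on granins alone and 72 together with Tph1. The members nearest to the limit had 0.293%, 0.263% and 0.260% granins, and the nearest wells outside it 0.303%, 0.311% and 0.314%. The wells were chosen by their measured Chga, Chgb and Tph1 levels and classed by Apoa1, Alpi, Muc2 and Lyz1, so levels of those genes in the wells are given as a description without a test. Tests are kept to shares of wells and genes compared over libraries, and to whole organoids, which the rule did not use.

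All samples came from the small intestine of Bl/6 mice. The single-cell groups were IDE (EGFR, Wnt and Notch inhibited, 4 libraries) and IDM (Mek, Wnt and Notch inhibited, 2 libraries), as their titles say. The names of the 2 IDM libraries could also be read as holding the EGF receptor inhibitor, which bears on every single-cell comparison of IDM with IDE. There was 1 library each of untreated ENR organoids (medium with EGF, Noggin and R-spondin) and of Ei organoids (EGF receptor inhibited). Whole organoids after 96 h of treatment gave 18 further libraries, 3 each of ENR, Ei, Mi (Mek inhibited), ID (Wnt and Notch inhibited), IDE and IDM. Names of single-cell libraries start with EEC, which could be read as enteroendocrine cells. The labels give neither the inhibitors' doses nor the treatment time of the single cells. They do not say whether cells were gated before the wells were filled, so shares of wells are shares of what was sorted. They do not say either that replicates came from separate cultures, and p-values then measure the spread between libraries, which may be technical.

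Notch signalling keeps intestinal precursors on the absorptive path, and cells that escape it turn on Atoh1 and become secretory. Absorptive enterocytes carry a brush border of digestive enzymes such as the alkaline phosphatase Alpi and export dietary fat on apolipoproteins such as Apoa1. Goblet cells secrete the gel-forming mucin Muc2, and Paneth cells release antimicrobial proteins such as lysozyme (Lyz1) and alpha-defensins. Tuft cells are chemosensory cells marked by the kinase Dclk1. On mm10 (GRCm38), Apoa1 lies on chromosome 9 (46228580 to 46230466), Alpi on chromosome 1 (87098002 to 87101606), Muc2 on chromosome 7 (141690340 to 141754693) and Lyz1 on chromosome 10 (117287797 to 117292868), and all 4 are protein-coding genes.

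A well was called absorptive where Apoa1 plus Alpi made up at least 0.3% of its transcripts and exceeded Muc2 plus Lyz1, and goblet/Paneth in the reverse case. By this rule 85 of the 151 wells were absorptive, 18 were goblet/Paneth and 48 were neither. With a class limit of 1% in place of 0.3%, 13 were absorptive, 10 goblet/Paneth and 128 neither. With granins under 0.1%, 113 members were left, of which 79, 11 and 23 were in these classes. Only 1 well reached 0.3% on both sums, with 0.597% Muc2 plus Lyz1 and 0.419% Apoa1 plus Alpi. Just outside the absorptive limit, 5 wells had from 0.2% to under 0.3% Apoa1 plus Alpi, and just inside it 10 wells had from 0.3% to under 0.4%. For Muc2 plus Lyz1 there was 1 well on each side of the limit in the same ranges. No doublet caller was run on these plates. From 21 to 63 wells per library were kept, with a median of 3653 to 5591 transcripts per kept well.

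**Figure D1:**
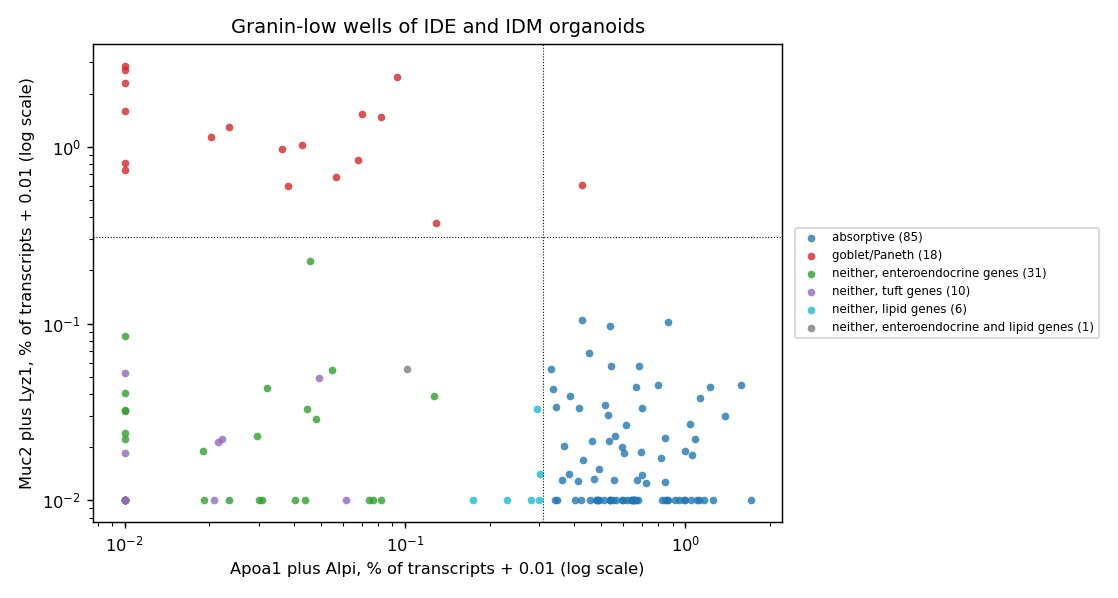
Each point is 1 of the 151 granin-low wells, with Apoa1 plus Alpi (x axis) and Muc2 plus Lyz1 (y axis) as percent of the well's transcripts plus 0.01 on log scales, and dotted lines at 0.3%. The 85 absorptive and 18 goblet/Paneth wells lie in opposite corners with 1 well above both limits, and the 48 remaining wells lie below both.

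The label non-endocrine did not hold for all members. Of the 48 wells that were neither absorptive nor goblet/Paneth, 31 held at least 1% of summed enteroendocrine genes with the rule genes left out, 10 held at least 1% of tuft genes, 6 held at least 1% of lipid absorption genes, and 1 held both enteroendocrine and lipid genes. The 1% limit was set after the values were seen. The 31 wells were named by their highest hormone: Gip in 12, Sst in 8, Cck in 7, Ghrl in 3 and Gcg in 1. In 1 well it stood at only 11.3 transcripts per 10000 (Sst), within the levels of absorptive wells (up to 33.6). Gip, the incretin of the upper intestine, stood at a median of 1020 transcripts per 10000 transcripts of the well (lowest 367, highest 1759) where it led. Sst, the inhibitory peptide of D cells, had a median of 1358 (lowest 11.3, highest 3521), and Cck, which drives gall bladder contraction, a median of 479.8 (lowest 85.3, highest 770.2). Cpe, a prohormone-processing enzyme, had transcripts in all 31 wells. Their Chga plus Chgb was at most 0.293%, with a median of 0.132% and no granin transcript in 2 wells, against a median of 3.61% in the 100 wells outside the rule. These 31 wells are called hormone-led here, and without them 120 members were left.

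**Figure D2:**
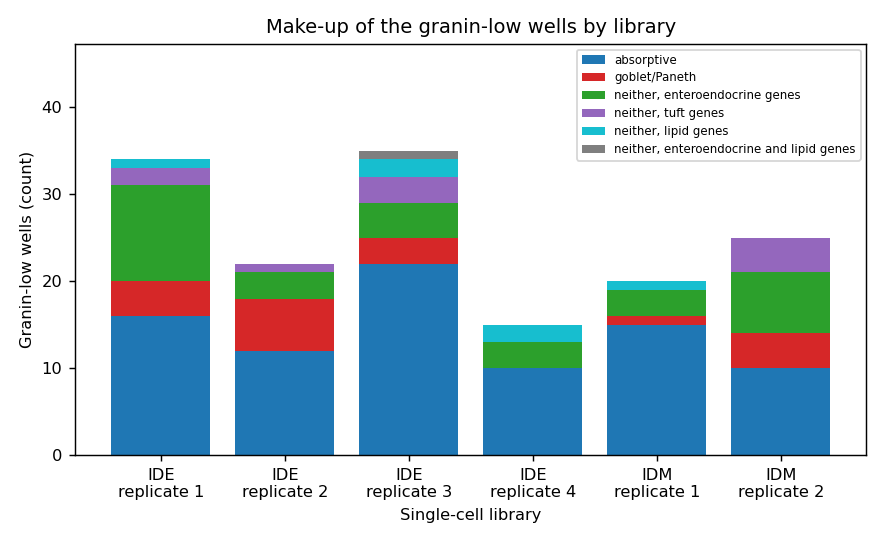
Bars give the number of granin-low wells in each single-cell library, stacked by class, with wells of neither class split by the gene list that reached 1%. Absorptive wells made up from 10 to 22 wells in each of the 6 libraries, and tuft-gene wells appeared in 4 libraries.

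The absorptive wells carried a fat-handling and brush-border profile, with genes not used by the rule well above their levels in goblet/Paneth wells. Across the 85 wells, Apoa4 followed Apoa1 and Alpi only weakly (Spearman correlations of 0.07 and 0.22). The wells were chosen by Apoa1 plus Alpi, which narrows the range of those genes, so the correlations are a description. The 12 lipid absorption genes other than Apoa1 summed to a median of 168 transcripts per 10000 (range 33.3 to 263), against 7.46 in goblet/Paneth wells, and reached 1% in 71 of the 85 wells. The 15 brush border genes other than Alpi had a median of 103 per 10000 (range 33.4 to 215), against 10.05. Within the class, Apoa1 ran from 12.4 to 121 per 10000 with a median of 37.2, and Alpi from 0 to 66.6 with a median of 22.1. Both transcripts were present in 84 of the 85 wells, and Apoa1 exceeded Alpi in 69.

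Fabp1, the liver-type fatty acid binding protein, had transcripts in 82 of the 85 absorptive wells, with a median of 29.2 and a highest value of 109 per 10000. Fabp2, the intestinal form, was also present in 82 wells (median 31.1). Apoc3 (median 31.6) and Apoa4 (median 19.8) were each present in 84 wells, and Sis, the disaccharidase sucrase-isomaltase, in all 85 (median 25.3). Levels of Apoa4 summed over the absorptive wells of each library differed more than those of Apoa1. The rule set a lower limit on Apoa1 plus Alpi in these wells but none on Apoa4, so the unlike spread is a description. Apoa4 stood at 34.1, 18.5, 13.9 and 8.22 per 10000 in the 4 IDE libraries and at 33.2 and 33.9 in the 2 IDM libraries. Apoa1 stood at 39.4, 37.2, 43.1 and 35.3 in IDE and at 43.8 and 50.2 in IDM.

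The 18 goblet/Paneth wells were goblet-type by their leading genes. Each of them passed the limit on Muc2 alone, from 36.1 to 286 per 10000 (median 107), whereas Lyz1 was present in 2 of them at 22.3 and 7.24 per 10000 and passed 0.3% in none. The trefoil peptide Tff3 (227 to 1188 per 10000, median 661) and the mucus-binding protein Fcgbp (96.6 to 409, median 182) were present in all 18. Spink4 was present in 17 and Agr2, the disulfide isomerase needed for Muc2 folding, in 16. The summed goblet list, without Muc2, exceeded the Paneth list in all 18 wells. Zg16, a lectin of the mucus layer, was present in 8 wells, and Clca1, a mucus-processing protease, in 4.

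Part of the Paneth gene set was present in the same wells. The list without Lyz1 reached 1% in 15 of the 18, at a median of 244 per 10000 (range 48.3 to 732), while its median was 0 in the absorptive wells. Much of that level was Mptx1, a pentraxin of Paneth cells, present in 17 wells with a median of 170 and a highest value of 387 per 10000. Its relative Mptx2 was present in 9 wells, in each under 10 per 10000. In 10 wells Mptx1 was present without Defa24. The alpha-defensin Defa24 was present in 7 wells, at 32.4, 35.9, 106, 137, 228, 320 and 330 per 10000, and absent from 11. Of the 15 alpha-defensin genes with a row in any of the 8 single-cell libraries, 3 had transcripts in these 18 wells, against all 15 in the 73 ENR wells. A gene without a row in a library was taken as 0, so a missing row cannot be told from absence. These counts were not thinned to equal depth. The 18 wells held 94306 transcripts in all, at a median of 3668 per well against 15528 in the ENR wells. Zg16 and Defa24 were together in 1 well, 7 wells held Zg16 alone, 6 held Defa24 alone and 4 held neither.

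Lyz1 itself was nearly missing from the triple-inhibited wells. Over all 251 kept wells, it had 20.2 transcripts in 9 wells, and the highest well stood at 22.3 per 10000. Among ENR wells that passed the same rule, 38 of 73 held Lyz1 and 4 reached 0.3%, with a highest value of 265 per 10000. Among Ei wells it was 26 of 70 and again 4. The ENR wells were deeper, with a median of 15528 transcripts against 4780 in the kept triple-inhibited wells. With each well thinned to 1500 transcripts, Lyz1 was detected in 8 of 73 ENR wells, 8 of 70 Ei wells and 3 of 251 kept wells, and in 2 of the 18 goblet/Paneth wells. The goblet/Paneth class of those 2 libraries thus rested on Lyz1 in all 8 wells, and Muc2 reached 0.3% in none of the 143. Those libraries have no replicate. Alpi entered as 0 in all of their wells, which was not read as absence, so the absorptive class there rested on Apoa1. The ENR and Ei libraries had no absorptive well by Apoa1. This allows a share of up to 4.11% in ENR and 4.29% in Ei, for counting error only.

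**Figure D3:**
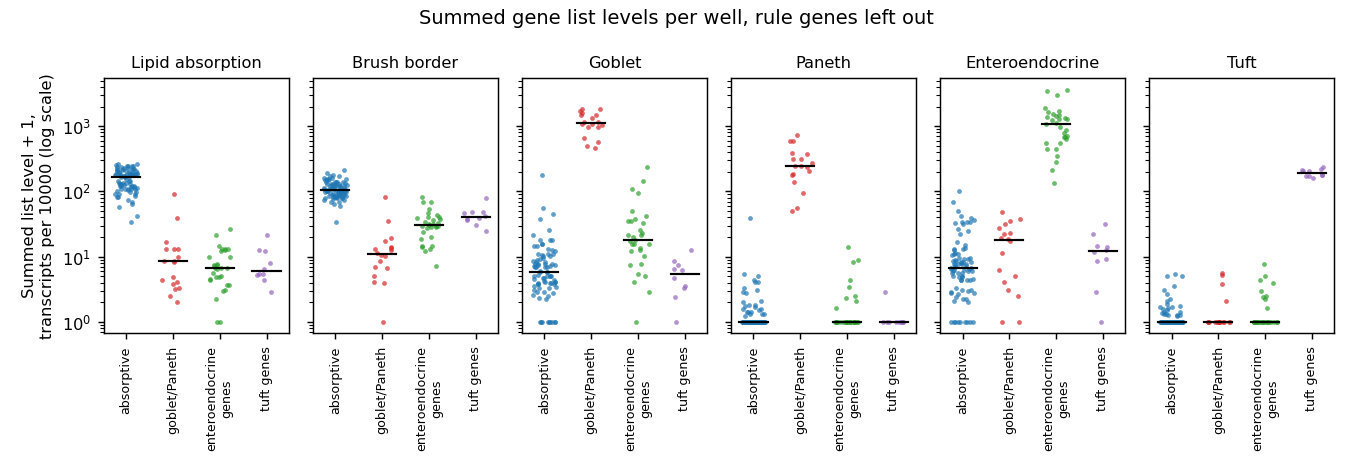
Points are wells and black lines medians of the summed level of 6 gene lists, in transcripts per 10000 plus 1 on a log scale, with the rule genes left out. Medians were 168 for lipid absorption genes in absorptive wells, and 1111 for goblet and 244 for Paneth genes in goblet/Paneth wells. They were 1067 for enteroendocrine genes and 190 for tuft genes in the wells named by those lists.

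The 10 tuft-gene wells, picked by the sum of the tuft list, each held several of its genes. Dclk1 ran from 25.95 to 45.3 per 10000 and was present in all 10. Rgs13, a regulator of G protein signalling, had a median of 33.2 (range 7.89 to 77.95), the actin-binding protein Avil 26.5 (range 8.51 to 52.4), and Trpm5, the cation channel of taste transduction, 22.6 (range 10.42 to 34.6). Each was present in all 10 wells, as was the transcription factor Sox9 at a median of 15.6 per 10000. Alox5ap, which serves leukotriene synthesis, was present in 9. By library, IDE replicates 1 to 4 held 2, 1, 3 and 0 of these wells, and all 4 from IDM were in replicate 2. Stem and cell cycle genes were low but not absent in the kept wells. Lgr5, the receptor that marks intestinal stem cells, had transcripts in 46 of the 251, and the summed stem list was 0 in 103 and the dividing list in 104. Pcna, a DNA replication clamp, was present in 62 of the 85 absorptive wells (median 3.01 per 10000). The stem cell marker Olfm4 and the cell cycle gene Mki67 had no transcript in any of the 251. At 1500 transcripts per well, Olfm4 was detected in 4 and Mki67 in 15 of the 73 ENR wells. Of 8 blood and stroma genes only 3 were measured, and they summed to 0 in 148 of the 151 members, with a highest value of 4.25 per 10000.

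Absorptive wells held more RNA than the others by the spike-in count. They had a median of 8620 transcripts against 3668 in goblet/Paneth wells, 4604 in wells of neither class and 3780 in the 100 granin-high wells, while median spike-in transcripts were 409, 423, 521 and 434. Transcripts per spike-in transcript were 36.3, 32.2, 19.9 and 31.6 in the absorptive wells of the 4 IDE libraries and 43.2 and 39.3 in those of IDM. The granin-high wells of the same libraries stood between 9.13 and 17.9, the highest value resting on 1 well of IDM replicate 1. Absorptive wells were higher in all 6 libraries, by a mean of 1.56 ± 0.40 on the log2 scale (SD, n = 6). Against wells of neither class the mean was 1.4996 ± 0.31 (n = 6), and against goblet/Paneth wells 1.61 ± 0.51 over the 5 libraries that held both. Total transcripts entered the rule through the 1500 limit and the class shares, so these values carry no test.

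The class markers were also detected outside their classes. With each well thinned to 1500 transcripts, Apoa1 was detected in 100% of absorptive wells and in 6% of granin-high wells, and Alpi in 92.9% and 35%. Muc2 was detected in 100% of goblet/Paneth wells, 14.1% of absorptive and 23% of granin-high wells. Before thinning the granin-high wells had Apoa1 in 17%, Alpi in 63% and Muc2 in 47%. A hormone reached 5 transcripts in 35 of the 85 absorptive wells, as Sst in 30 of them, and at most 33.6 per 10000. Of those 30 wells, 12 were in IDE replicate 1 and 16 in IDE replicate 3, whose absorptive wells were deeper than those of IDE replicate 4 (medians of 24135, 11223 and 5217 transcripts). Summed over absorptive wells, Sst was at 3.96, 0, 4.89 and 3.01 per 10000 in IDE replicates 1 to 4, and the highest kept well of each had 3521, 25.4, 2561 and 3346. In IDM replicates 1 and 2 Sst was at 0.642 and 1.07, and the highest kept wells had 1270 and 1198. The part of free RNA in these counts was not tested.

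Between absorptive and goblet/Paneth wells, 129 of 429 genes (30.1%) with at least 5 transcripts per 10000 in the higher class differed by at least 4-fold in summed levels averaged over libraries, 94 higher in absorptive wells (21.9%) and 35 higher in goblet/Paneth wells (8.16%). This contrast follows from the rule, so it carries no test, and only IDE replicate 2 held at least 5 wells of both classes. Towards the absorptive side, log2 ratios of levels per 10000 plus 0.5 were 3.69 ± 1.55 for Fabp1, 3.61 ± 1.87 for Apoc3 and 3.15 ± 2.03 for Sis (SD over the 5 libraries with both classes). Each was higher in absorptive wells in all 5. The detoxifying enzymes Mgst1 (3.42 ± 0.94), Gstm3 (3.37 ± 2.11) and Cyp3a25 (3.31 ± 0.92), the nucleoside enzyme Cda (3.31 ± 1.06), the sulfate donor enzyme Papss2 (3.22 ± 1.34) and the secreted protein Prap1 (3.37 ± 2.21) were also on that side, as was 2010106E10Rik (3.24 ± 0.99). Cyp2c66, a cytochrome, and S100g, the intestinal calcium-binding protein, had no transcript in goblet/Paneth wells and were at least 18.7-fold and 16.3-fold higher in absorptive wells, counted against 3 transcripts over the 18 wells. Apoc2 and Leap2, an antimicrobial peptide and ghrelin receptor antagonist, had 2.00 and 2.01 transcripts there, against 776.8 and 713.5 in absorptive wells.

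On the goblet/Paneth side, Tff3 (log2 ratio -7.16 ± 2.06), the chemokine Ccl6 (-7.10 ± 1.25), Fcgbp (-6.96 ± 1.92), Mptx1 (-6.80 ± 2.03), Zg16 (-6.30 ± 2.32) and Spink4 (-5.56 ± 0.71) were lower in the absorptive wells in all 5 libraries. Agr2 (-5.59 ± 2.83) was lower in 4 of them. Defa24 had 2.00 transcripts in all absorptive wells together and 430 in goblet/Paneth wells. Nupr1, a stress-induced chromatin protein (-5.15 ± 0.92), S100a6, a calcium-binding protein (-4.97 ± 0.70), the colipase Clps, with 2.00 transcripts in absorptive and 109 in goblet/Paneth wells, the corepressor Cbfa2t3 (-4.23 ± 1.09) and Ly6e (-3.77 ± 1.25) followed. The digestive protease Ctrb1 was on this side at -6.66 ± 4.32 through a single well of IDM replicate 1 at 648 per 10000. The next highest well had 7.73, and without that library the ratio was 0.14.

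**Figure D4:**
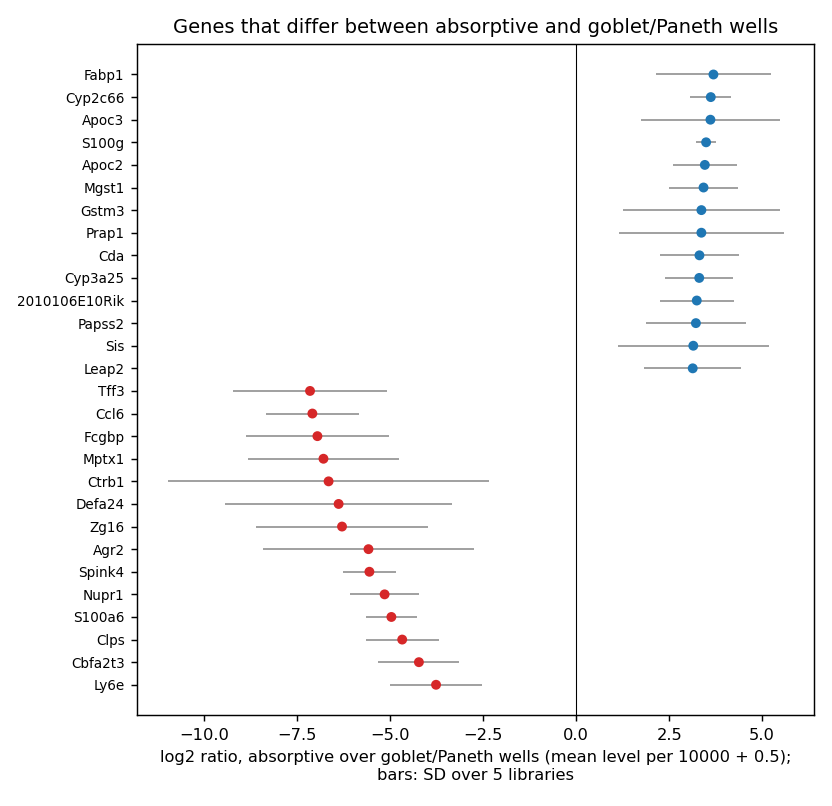
Points give the log2 ratio of transcripts per 10000 plus 0.5, absorptive over goblet/Paneth wells, from library means, and bars the SD over the 5 libraries with both classes. For Cyp2c66 and S100g, with no transcript in goblet/Paneth wells, the plotted ratio depends on the added 0.5. Ctrb1, at -6.66, has the widest bar.

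The choice of Mek or EGF receptor inhibitor was compared over libraries. Granin-low wells made up 56.7%, 64.7%, 70% and 65.2% of kept wells in IDE (mean 64.1 ± 5.53%, SD, n = 4) and 95.2% and 39.7% in IDM (mean 67.5 ± 39.3%, n = 2). The 2 IDM libraries lay on either side of all 4 IDE libraries. The difference was not detectable (two-sided exact permutation test over libraries, p = 0.8, smallest possible 0.0667). The absorptive share of granin-low wells was 57.8 ± 8.76% in IDE and 57.5 ± 24.7% in IDM (exact permutation p = 1), the goblet/Paneth share 11.9 ± 11.4% and 10.5 ± 7.78% (p = 0.933), and the share of neither class 30.3 ± 9.61% and 32 ± 16.97% (p = 0.8).

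Transcripts summed over the granin-low wells of a library gave 0 of 4593 genes (0%) past an adjusted p of 0.05 between IDM and IDE (edgeR quasi-likelihood test, Benjamini-Hochberg), 142 at an unadjusted p under 0.05, and 0 by DESeq2. Over the absorptive wells alone it was 0 of 3289 genes (0%), 141 unadjusted and 0 by DESeq2. In simulated counts of these designs, 80% and 80.2% of 4-fold changes and 21.2% and 20% of 2-fold changes were recovered. There, 5 and 7 unchanged genes were called. Changes were placed among the more highly expressed genes and all genes had a common dispersion, so recovery in the libraries themselves may be lower. In absorptive wells Apoa1 stood at 4209, 4138, 4747 and 4054 counts per 1000000 (CPM) in IDE and at 5095 and 5547 in IDM. The wells were chosen by this gene, so these values are a description and no test is given. Alpi in the same wells was at 2476, 2423, 1498 and 3144 in IDE and at 4738 and 2526 in IDM. Without IDM replicate 1 or IDM replicate 2, 11 and 14 genes were called in absorptive wells. Goblet/Paneth wells were not tested, since 1 IDE library and 0 IDM libraries held at least 5 of them.

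Whole organoids after 96 h, which the rule did not use, were read for the same genes. Fewer cells of a type and less RNA per cell cannot be told apart in them. The ID libraries, with Wnt and Notch inhibited alone, served as the common control of IDE and IDM, so the comparisons with ID are not independent of each other. IDE differed from ID in 1939 of 8135 genes (23.8%; 10.8% higher, 13.1% lower), IDM from ID in 1100 (13.5%; 5.37% higher, 8.15% lower) and IDM from IDE in 382 (4.7%; 2.13% higher, 2.57% lower), by edgeR's quasi-likelihood test at an adjusted p under 0.05. Leaving out IDM replicate 2 took the last count to 105, IDE replicate 3 to 201 and IDE replicate 2 to 212, and it took the IDM against ID count to 719 without IDM replicate 2. The dual-specificity phosphatase Dusp6, a transcriptional target of ERK, fell from 149, 141 and 73.4 CPM in ID to 22.7, 8.91 and 7.73 in IDE and to 17.8, 3.07 and 3.79 in IDM (edgeR adjusted p = 3.73e-08 and 3.88e-07). Of 8 tested ERK target genes, 8 fell in IDE and 6 in IDM, where 13.1% and 8.15% of all genes fell.

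Several absorptive genes were lower with the added inhibitor. Apoa1 stood at 1411, 2174 and 1864 CPM in ID, at 1011, 876 and 966 in IDE and at 831, 734 and 698 in IDM. The ID libraries lay above all others, and Apoa1 fell by 0.93 ± 0.20 (SE) on the log2 scale in IDE (edgeR adjusted p = 0.000972) and by 1.27 ± 0.21 in IDM (adjusted p = 5.1e-05). Alpi fell from 3129 ± 371 CPM (SD, n = 3) to 1450 ± 281 in IDE (adjusted p = 7.11e-05, edgeR) and 1098 ± 212 in IDM (adjusted p = 1.57e-06, edgeR). Of 13 lipid absorption genes, 7 fell and 2 rose in IDE (median log2 difference -0.69, against -0.03 over all genes), and 9 fell and 2 rose in IDM (median -0.83, against 0.00). Over all genes, 13.1% fell and 10.8% rose in IDE, and 8.15% fell and 5.37% rose in IDM. Apoa4 fell by 2.61 ± 0.29 and 3.21 ± 0.31, Fabp1 by 1.64 ± 0.21 and 1.62 ± 0.22, and Apoc3 by 0.90 ± 0.24 and 1.38 ± 0.25 in IDE and IDM, and the Apoc3 call in IDE was lost without IDE replicate 3 (adjusted p = 0.0591). Of 16 brush border genes, 4 rose and 4 fell in IDE (median log2 difference -0.01), and 3 rose and 2 fell in IDM (median 0.04), and the 2 that fell in IDM are near the 8.15% of all genes.

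Among the genes that rose, Enpep, an aminopeptidase of the brush border, went from 19.7, 22.99 and 56.5 CPM in ID to 303, 213 and 239 in IDE and 342, 230 and 250 in IDM (log2 difference 2.87 ± 0.28 and 2.98 ± 0.29; edgeR adjusted p = 4.26e-09 and 6.18e-09). Lct, the milk sugar hydrolase lactase, was listed at 0, 0 and 3.77 CPM in ID, at 30.3, 22.8 and 33.5 in IDE and at 57.8, 21.5 and 49.3 in IDM (adjusted p = 0.000211 and 7.43e-05, edgeR). In the single cells, Enpep had transcripts in 71 of the 85 absorptive wells and Lct in 59, against 1 each of the 18 goblet/Paneth wells. Those counts were not thinned to equal depth, and the absorptive wells were deeper (median of 8620 transcripts against 3668).

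The goblet genes Muc2, Zg16 and Clca1 fell, whereas Tff3 did not separate the groups. Tff3 stood at 5867 ± 2912 CPM in ID, 6650 ± 2000 in IDE and 4440 ± 59.4 in IDM (SD, n = 3). All IDE and IDM libraries lay inside the ID range of 3964 to 9219 CPM for Tff3. Muc2 fell from 4358, 3353 and 3382 CPM in ID to 1245, 734 and 834 in IDE (log2 difference -1.98 ± 0.21, edgeR adjusted p = 2.86e-08) and 800, 1235 and 1127 in IDM (-1.81 ± 0.21, adjusted p = 2.61e-07). Zg16 fell from 20065, 9711 and 12901 CPM to 2044, 4075 and 2372 in IDE and further to 555, 412 and 436 in IDM, and IDM was below IDE (-2.61 ± 0.26, edgeR adjusted p = 8.87e-08). Clca1 fell from 3156 ± 716 CPM (SD, n = 3) to 161 ± 65.6 in IDE and 25.7 ± 17.7 in IDM (edgeR adjusted p = 2.4e-12 against ID for IDE, 2.56e-14 for IDM), and it too was lower in IDM than in IDE (adjusted p = 0.000151). Ccl6 rose instead, from 153, 105 and 124 CPM to 456, 542 and 216 in IDE and 800, 648 and 652 in IDM (adjusted p = 2.11e-06 and 5.58e-09). Of 19 tested goblet genes, 9 fell and 3 rose in IDE, and 7 fell and 3 rose in IDM (median log2 differences -0.88 and -0.89). Of all genes, 13.1% fell and 10.8% rose in IDE and 8.15% fell and 5.37% rose in IDM, and the 3 goblet genes that rose in IDE are near that share. Fcgbp fell by 1.63 ± 0.21 in IDE (edgeR adjusted p = 1.01e-06) and by 1.04 ± 0.21 in IDM (0.000824). In the granin-low wells, Zg16 summed to 175, 2722, 11.5 and 0 CPM in IDE and to 143 and 87.5 in IDM, which did not pass the test (log2 difference -2.76 ± 1.48, edgeR adjusted p = 0.999) and was 0.40 without IDE replicate 2. It passed with the replicate number as a block (-3.05, adjusted p = 0.00265) and without the filter on low counts (adjusted p = 6.72e-08).

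Among Paneth genes, Mptx1 and Defa24 rose. Mptx1 rose from 533, 460 and 478 CPM in ID to 979, 1610 and 948 in IDE (log2 difference 1.27 ± 0.20, edgeR adjusted p = 2.11e-05) and 1644, 2672 and 1745 in IDM (2.04 ± 0.21, adjusted p = 1.39e-08). IDM lay above IDE for Mptx1 (0.77 ± 0.20, adjusted p = 0.0206), a call lost without IDE replicate 1, IDE replicate 3 or IDM replicate 2 (adjusted p from 0.0911 to 0.221, edgeR). Defa24 rose by 0.87 ± 0.21 in IDE (adjusted p = 0.00279, edgeR) and 0.95 ± 0.21 in IDM (0.00235). Lyz1 stood at 1884, 2161 and 1356 CPM in ID, 1297, 1220 and 948 in IDE and 1035, 1447 and 1221 in IDM. It fell in IDE (-0.64 ± 0.19, edgeR adjusted p = 0.0141), a call lost without ID replicate 2 or IDE replicate 3, and in IDM it did not pass (-0.54 ± 0.19, adjusted p = 0.06), although it did without ID replicate 3 (0.0139) or without the filter on low counts (0.0251). Of 16 tested Paneth genes, 3 rose and 4 fell in IDE (10.8% and 13.1% of all genes), and 4 rose and 2 fell in IDM (5.37% and 8.15%). The 2 that fell in IDM are near the share of all genes.

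Lyz1 was the marker whose level in single cells lay farthest below its level in bulk among the 5 compared. Summed over the 251 kept wells, Mptx1 stood at 1068 CPM, Muc2 at 684, Alpi at 1398, Apoa1 at 2543 and Lyz1 at 10.2, against bulk means in IDE of 1179 ± 374, 938 ± 271, 1450 ± 281, 951 ± 68.8 and 1155 ± 183 CPM (SD, n = 3). The 251 wells pooled 167 of IDE and 84 of IDM. Bulk means in IDM were 2020, 1054, 1098, 754 and 1234 CPM in the same order. A shortfall was not particular to Lyz1: Defa24 and Zg16, outside these 5, stood at 224 and 304 CPM in the wells. Their bulk means were 1399 and 2830 CPM in IDE and 1477 and 468 in IDM. The treatment times need not be equal and single cells and bulk were scaled separately, so no test was made.

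Of the tuft genes, Dclk1 stood at 46.7, 22.99 and 54.6 CPM in ID, at 51.1, 50.5 and 33.5 in IDE and at 138, 181 and 159 in IDM. The IDM libraries lay above all ID and IDE libraries (log2 difference 1.88 ± 0.27 against ID and 1.79 ± 0.26 against IDE, edgeR adjusted p = 6.51e-06 and 4.28e-05). Of 7 tested tuft genes, 4 rose and 0 fell in IDE (10.8% and 13.1% of all genes), 6 rose and 0 fell in IDM (5.37% and 8.15%), and 3 (2.13% of all genes), namely Dclk1, Avil and Trpm5, were higher in IDM than in IDE. Rgs13 rose both in IDE (log2 difference 2.44 ± 0.38, edgeR adjusted p = 1.52e-05) and in IDM (2.94 ± 0.39, adjusted p = 2.16e-06), and so did Trpm5 (2.00 ± 0.55 and 3.31 ± 0.52, adjusted p = 0.00729 and 2.36e-05), whose IDE call was lost without ID replicate 3. The IDM against IDE call for Trpm5 (1.31 ± 0.38, adjusted p = 0.0437, edgeR) was lost whichever of the 6 libraries was left out (adjusted p from 0.0651 to 0.182). In the granin-low wells Dclk1 summed to 155, 133, 77.4 and 0 CPM in IDE and to 0 and 425 in IDM, with no call (log2 difference 1.31 ± 0.66, adjusted p = 0.999, edgeR). Without IDM replicate 2 the difference was -7.59.

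**Figure D5:**
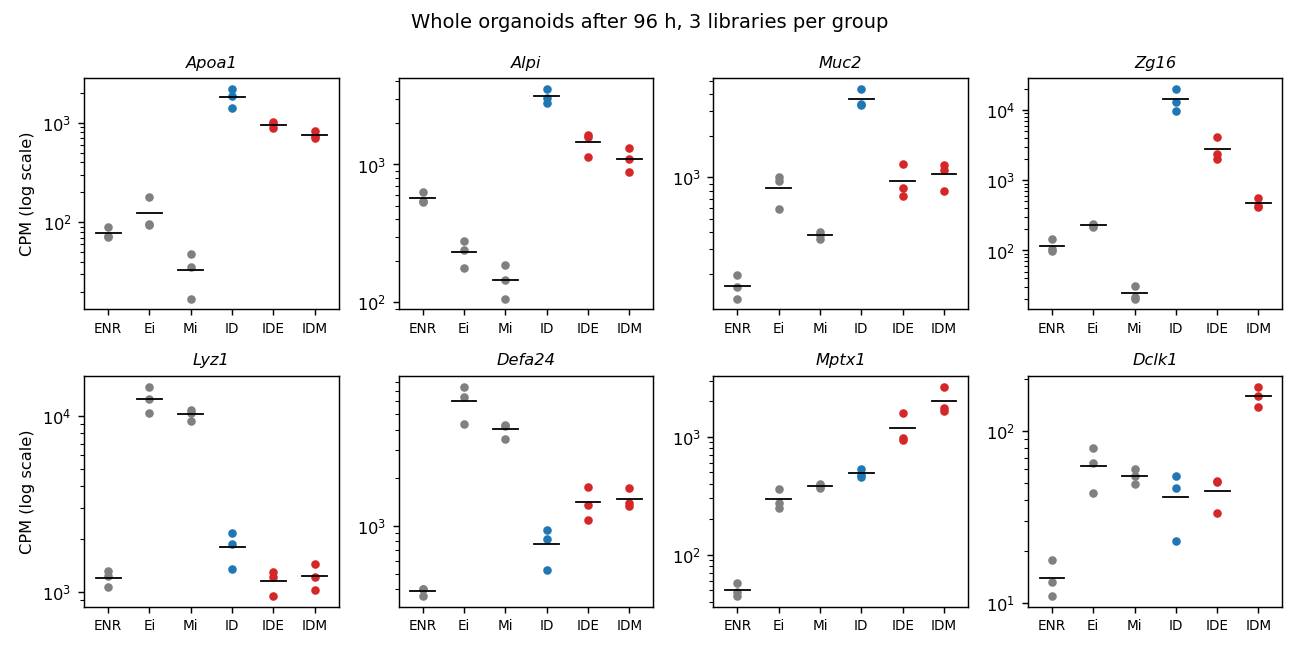
Points are the 3 whole-organoid libraries per group after 96 h, lines their means, in CPM on log axes, for 8 marker genes of the granin-low wells. Apoa1, Alpi, Muc2 and Zg16 were lower in IDE and IDM than in ID, Mptx1 and Defa24 were higher, and Dclk1 was higher in IDM than in ID and IDE.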

How the data were processed

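For each gene of a well, the deposited single-cell files hold an estimated transcript count that the authors corrected for chance reuse of molecular identifiers: with 256 identifiers, all values but 8 invert to a whole identifier count within 0.01. Bulk libraries of 96 h were used as the deposited raw counts, with totals from 158135 to 1738425. BWA 0.6.2-r126 and the mm10 build are named in the submitters' processing notes, and the counting program is not given in the sources used here. Spike-in rows were dropped before totals were taken, 96 well barcodes were shared by all 8 single-cell libraries by design, and 0 kept wells were identical. Lyz1 has no row in IDM replicate 1 and was taken as 0.

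Wells were summed per library, rounded and fitted with edgeR 4.0.16 (TMM, filterByExpr, quasi-likelihood) in R 4.3.3, and the 18 bulk libraries in 1 fit, with p-values adjusted over all genes tested. DESeq2 1.42.0 was the alternative. The remaining steps used pandas 2.3.3, scipy 1.17.1 and numpy 2.4.6 under Python 3.11.15, and figures were drawn with matplotlib 3.10.9. CPM and levels per 10000 were computed here. Fits were tested on simulated counts. Bounds and allowed shares rest on 3 transcripts or wells and cover counting error only.

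Members, lists and classes were chosen with earlier results of these data known. Named genes were the 7 rule genes, up to 6 of each list by level or size of change, and the 15 genes each way with the largest ratio between classes, of which 1 is not reported here. Gene positions came from GENCODE M21. The 14 sorted and control libraries and those of 6 h were not used.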

Additional observations from a re-analysis of the deposited data

Results flagged for a closer look

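Over the 4 IDE libraries, 13 values were screened for a library far from the others, and 1 was found: the summed level of Fabp2 in absorptive wells was 62.3 transcripts per 10000 in IDE replicate 1, against 24.998, 30.3 and 28.7 in replicates 2 to 4. Chance alone gives about 1 such value in 20. The 2 IDM libraries stood at 47.2 and 55.1 per 10000.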

How the results depend on the processing

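With 4 against 2 libraries no share could pass 0.05, so the differences (IDM minus IDE, percentage points) are given as values, and their sign moved. With wells kept at 3000 transcripts it was -0.482 for the granin-low share, 6.55 for the absorptive share and -5.82 for neither. The absorptive share was 0.743 with granins under 1%, 11.8 with a class limit of 1% (neither: -8.48), 0.703 after thinning and 0.139 without the 31 hormone-led wells, an alternative chosen after seeing the data. Without 1 library, the 4 differences ran from -24.5 to 31.1 (granin-low), -17.8 to 17.2 (absorptive), -6.90 to 4.10 (goblet/Paneth) and -10.3 to 13.7 (neither).

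Without the low-count filter, 16 genes were called in granin-low and 14 in absorptive wells. Without 1 library the calls ran from 0 to 4 and from 0 to 14. In bulk they ran from 1372 to 1814 (IDE against ID), 719 to 936 (IDM against ID) and 105 to 330 (IDM against IDE). The cause was not tested. Fitting only the 6 libraries compared gave 268 genes higher and 140 lower in IDM than in IDE, against 173 and 209. With the replicate block, calls were 6 and 3 in the wells and 1873, 1110 and 404 in bulk. The numbers did not pair the libraries (correlations of deviations from -0.217 to 0.0605). Of the genes named, 4 values reversed: Zg16 in wells (0.40 without IDE replicate 2, -3.16 to 0.40 without 1 library), Dclk1 in wells (-7.59 without IDM replicate 2, -7.59 to 1.99) and Ctrb1 (0.12 with wells of 3000 transcripts, 0.14 without IDM replicate 1, -7.08 to 0.14). Fits of goblet/Paneth wells, and of absorptive wells at a class limit of 1%, were not run for lack of libraries. Where a group was left with 1 library, it was assumed to vary like the others. Goblet/Paneth values rest on 94306 transcripts in 18 wells, against 1.14e+06 in the absorptive wells.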

Other observations

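Immediate-early and ERK-responsive genes differed in level between the classes of wells. The 14 ERK target genes measured summed to a median of 22.5 transcripts per 10000 in goblet/Paneth wells, 19.6 in the 31 hormone-led wells and 31.8 in the 100 granin-high wells, against 4.99 in absorptive and 1.29 in tuft-gene wells. Fos, an immediate-early transcription factor that is also induced by handling of cells, was present in 15 of 18 goblet/Paneth wells (median 14.97) and in 1 of 10 tuft-gene wells. The summed stress genes, which also hold Fos, had medians of 24.6 in goblet/Paneth, 8.25 in absorptive and 3.43 in tuft-gene wells. These are levels in classes set by other genes of the same wells, without a test.

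Of the lineage factors, Atoh1, the secretory fate factor, had transcripts in 12 of 18 goblet/Paneth wells, 3 of 31 hormone-led wells, 1 of 85 absorptive wells and 0 of 10 tuft-gene wells. Creb3l3, a lipid-responsive transcription factor of enterocytes, was present in 83 of 85 absorptive wells (median 9.34 per 10000), 4 of 18 goblet/Paneth wells and 1 of 10 tuft-gene wells. Klf4, a zinc-finger factor needed for goblet cells, crossed the classes, with transcripts in 13 of 18 goblet/Paneth, 7 of 10 tuft-gene and 19 of 85 absorptive wells. Enterocyte genes were not confined to absorptive wells: Sis was present in 22 of the 31 hormone-led wells at a median of 7.18 per 10000, against 5 of 18 goblet/Paneth and 2 of 10 tuft-gene wells. Apoa1, by contrast, was present in 4 of the 31 hormone-led wells, though the rule keeps it low there. None of these counts of wells was thinned to equal depth.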
